A study of Mus musculus with 18 samples.

Results

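The microglia and astrocyte fractions of mouse frontal cortex were compared here across 6 pools of animals. They make up 12 of the 18 RNA-seq libraries of a series that also holds a neuron fraction. Each pool combined the cortices of 5 mice in 1 cell suspension, and every pool gave 1 microglia and 1 astrocyte library. The 2 libraries were paired where their labels gave the same treatment and the same batch. The suspension was first cleared of endothelial cells on an antibody-coated plate. A plate carrying an antibody to CD45 then held back the cells called microglia. Oligodendrocytes and their precursors were removed after that, and antibodies to Thy1 and HepaCAM captured neurons and astrocytes from what was left. All mice carried the transgene B6;D2-Tg(S100B-EGFP)1Wjt/J, a green fluorescent reporter under S100B regulatory sequence. They received vehicle, 10 mg/kg clozapine or 1 mg/kg risperidone by intraperitoneal injection once a day for 14 days, from postnatal day 60 to 74, and were killed on day 75. Each treatment had 2 pools, 1 in batch 1 and 1 in batch 2, and the labels do not say what the batch number stands for. The labels describe the animals as males in 1 place and as both sexes in another. CD45 is carried by all white blood cells, so the antibody alone does not restrict the fraction to microglia. The comparison asks which genes set the 2 fractions apart in every pool, whichever treatment the animals had.

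Microglia are the resident macrophages of the brain. They depend on the receptor CSF1R and on the transcription factor PU.1, sense ATP, chemokines and debris, and engulf and degrade what they recognise. Astrocytes take up glutamate and potassium from the extracellular space, are coupled to each other by gap junctions, and supply neurons with lactate and cholesterol. Microglia descend from yolk sac macrophages and astrocytes from the neural tube, and each has well-known marker genes.

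The counts assigned to genes summed to 5283809 to 9530838 in the 6 microglia libraries and 4714468 to 10651230 in the 6 astrocyte libraries. A read over several genes counts for each of them in these sums. Protein-coding genes took 84.4 to 87.6% of the counts. Levels are given as counts-per-million (CPM) after scaling by the trimmed mean of M values (TMM). A difference is the log2 ratio of microglia to astrocytes within pools, from the edgeR quasi-likelihood test with the pool as a block. A gene was called where the p adjusted by Benjamini-Hochberg over all genes was under 0.05. RNA of microglial genes was not spread evenly over the astrocyte libraries. The summed level of 20 microglial markers was 1780 CPM in the astrocyte library of vehicle pool 2 and 1460 CPM in that of risperidone pool 2. It was 667 and 668 CPM in vehicle pool 1 and clozapine pool 2, and 1170 and 1240 CPM in clozapine pool 1 and risperidone pool 1. In the microglia libraries the same sum was 7480 to 15300 CPM. The main counts are also given without vehicle pool 2 and risperidone pool 2. In bulk libraries, fewer cells of a type and less RNA per cell cannot be told apart.

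Of 27435 genes tested, 5475 were called between the fractions, which is 20.0%. Microglia were higher for 3004 of them (10.9% of genes tested) and lower for 2471 (9.01%). Among the 12441 genes with a mean of at least 10 CPM the shares were 18.4% and 17.8%. Counts in the gene lists below stand beside these shares, and a count near them is not read as a result about its list. The sign was the same in all 6 pools for 4961 called genes, 18.1% of genes tested and 90.6% of those called. Of them 2807 were higher (10.2%) and 2154 lower (7.85%). With or without a call, the sign was the same in all 6 pools for 6414 genes (23.4%). Call and sign come from the same 6 pools, so the share among called genes is no separate support. Differences toward microglia were larger than those toward astrocytes. The median was 1.46 among genes called higher and -1.02 among genes called lower, beside 0.10 over all genes. A log2 difference of at least 3 was reached by 344 genes called higher and by 15 called lower. For 2256 genes called higher (8.22%) and 1216 called lower (4.43%) the 6 libraries of one fraction did not overlap the 6 of the other. With or without a call, all microglia libraries stood above all astrocyte libraries for 8.56% of genes tested and below them for 4.60%. Without vehicle pool 2 and risperidone pool 2, 6831 genes were called, 3046 higher and 3785 lower. Of the 5460 genes called with all pools and still tested, 4904 were called the same way (89.8%). Whether more genes were higher or lower depended on the setting. With RLE scaling in place of TMM 2769 were higher and 2793 lower, and in DESeq2 2983 and 2977. The numbers were 3873 and 4876 in batch 1 alone and 2507 and 1925 in batch 2 alone.

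The genes of the capture antigens came out on the side of their plate. Ptprc encodes CD45 and lies on chromosome 1 at 137990599 to 138103446 (minus strand, GRCm39). Its level was 258, 330 and 358 CPM in microglia (lowest, median and highest) and 7.29, 11.6 and 78.5 CPM in astrocytes, with a log2 difference of 4.18 (SE 0.55, edgeR adjusted p = 0.000113). The groups did not overlap, and the highest astrocyte value belonged to vehicle pool 2. Hepacam, the adhesion molecule of astrocytes used for their capture, lies on chromosome 9 at 37278647 to 37297871 (plus strand). It stood at 30.0, 52.6 and 107 CPM in microglia against 210, 227 and 330 CPM in astrocytes, a difference of -2.06 (SE 0.23, edgeR adjusted p = 3.21e-05). S100b, a calcium-binding protein of astrocytes, was lower in microglia by more (-2.89, SE 0.21), at 13.3 to 59.5 CPM against 139 to 438 CPM. Thy1, the antigen of the neuron plate, was not called (-0.24, SE 0.25, edgeR adjusted p = 0.605) and its ranges overlapped.

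**Figure D1:**
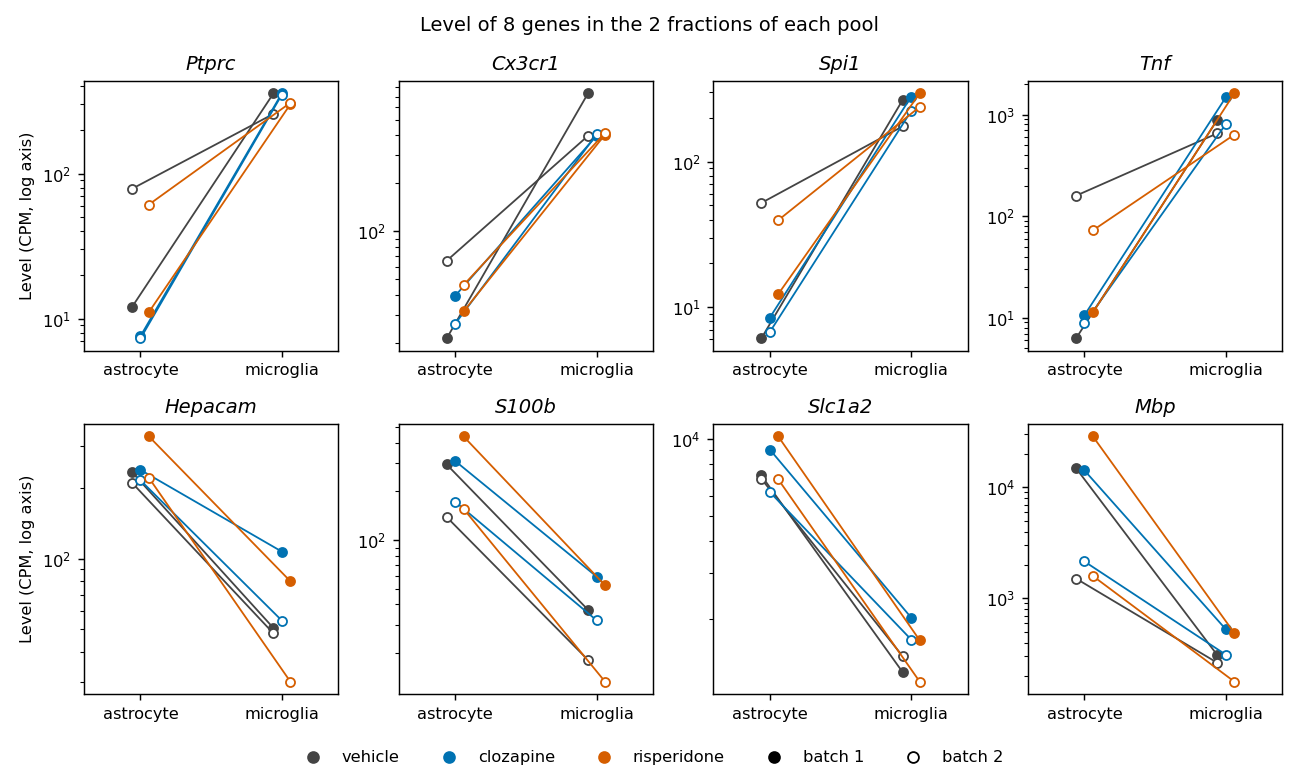
Level of 8 genes in CPM on log axes, in the microglia and astrocyte library of each of 6 pools; a line joins the libraries of a pool, colour gives the treatment, and filled and open points give batch 1 and 2. In every panel the 6 microglia points and the 6 astrocyte points do not overlap, and the open vehicle and risperidone points stand highest among the astrocyte libraries for Ptprc, Spi1 and Tnf.

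Among protein-coding genes with a mean of at least 10 CPM and the same sign in all 6 pools, the 8 with the smallest p toward microglia were Gcnt1, Clec2d, Samsn1, Fli1, C9orf72, Ggta1, Sla and Rac2. Gcnt1 builds branched O-glycans, Ggta1 adds terminal galactose, Clec2d is a lectin-like ligand of leukocytes, and Rac2 is a small GTPase of blood cells. Samsn1 and Sla are adaptors of leukocyte signalling, Fli1 is a transcription factor of the ETS family, and C9orf72 acts in membrane traffic. Their differences lay between 2.21 (SE 0.17) for C9orf72 and 3.92 (SE 0.27) for Gcnt1, each with an edgeR adjusted p of 1.52e-05. Gcnt1 stood at 62.3, 69.7 and 92.8 CPM in microglia and at 2.83, 4.34 and 8.95 CPM in astrocytes. None of the 8 overlapped between fractions, beside 8.22% of genes tested that were called higher without overlap. They were picked by p and sign in the same libraries, so this is no separate support. Toward astrocytes the 8 genes were Tmem229a, Scrg1, Qdpr, Gjc3, Fgf1, Chrdl1, S100b and Scd1, from -2.07 (Chrdl1, SE 0.15) to -3.23 (Qdpr, SE 0.23). Chrdl1 is a secreted antagonist of bone morphogenetic proteins, Fgf1 a growth factor, Scd1 a fatty acid desaturase, and Qdpr a reductase of pterin cofactors. Gjc3 is a connexin of myelinating glia.

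Promoter sequence was available in RefSeq tables (GRCm38.p6) for 15 of the 26 genes with the smallest p or the largest difference. The 300 bases from 250 before to 50 after each start were searched on both strands for 4 sets of letters. The letters GAGGAAGT, as bound by PU.1, stood in 5.64% of the promoters of genes called higher in microglia in all 6 pools (133 of 2358) and in 1.66% of those called lower (32 of 1930). The share was 3.00% over tested genes and 3.20% over all 32851 promoters. The letters TTTC, any 2 letters and TTTC again, as bound by interferon regulatory factors, stood in 3.90% and 1.97% of the 2 sets, beside 3.21% over tested genes and 3.44% of all promoters. ACAATGG, as bound by SOX factors, stood in 2.46% and 2.59%, beside 2.71% over tested genes and 3.66% of all promoters. The palindrome of nuclear factor I was in only 12 promoters in all. A match is a run of letters and not a measured binding site. The sets were found near 6 of the 15 genes, and 4 of these promoters are shown as examples, with the letters in capitals; they run 5′ to 3′ on the strand of the gene. Samsn1 (chr16:75909217-75909516, minus strand) and Gcnt1 (chr19:17356618-17356917, minus strand, 1 of 3 starts) hold the PU.1 letters, Samsn1 in 2 copies. Clec2d (chr6:129180365-129180664, plus strand) holds the interferon regulatory factor letters on the other strand, and Ermn, a gene of myelinating cells (chr2:58052815-58053114, minus strand), holds the SOX letters. The other 2, Edn1, higher in microglia, and Gjc3, lower in microglia, each hold the interferon regulatory factor letters and are not shown.
Samsn1: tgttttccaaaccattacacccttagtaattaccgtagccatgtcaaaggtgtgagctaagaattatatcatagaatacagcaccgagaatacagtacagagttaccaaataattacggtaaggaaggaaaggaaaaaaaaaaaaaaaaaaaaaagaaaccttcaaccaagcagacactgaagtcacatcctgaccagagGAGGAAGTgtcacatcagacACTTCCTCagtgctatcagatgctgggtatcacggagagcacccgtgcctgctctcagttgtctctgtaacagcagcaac
Gcnt1: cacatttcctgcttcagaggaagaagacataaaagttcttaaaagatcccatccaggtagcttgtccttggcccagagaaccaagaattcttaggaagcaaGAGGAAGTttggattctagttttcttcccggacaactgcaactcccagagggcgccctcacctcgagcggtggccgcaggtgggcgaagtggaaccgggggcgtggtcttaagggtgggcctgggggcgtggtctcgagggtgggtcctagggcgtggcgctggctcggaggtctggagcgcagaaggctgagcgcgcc
Clec2d: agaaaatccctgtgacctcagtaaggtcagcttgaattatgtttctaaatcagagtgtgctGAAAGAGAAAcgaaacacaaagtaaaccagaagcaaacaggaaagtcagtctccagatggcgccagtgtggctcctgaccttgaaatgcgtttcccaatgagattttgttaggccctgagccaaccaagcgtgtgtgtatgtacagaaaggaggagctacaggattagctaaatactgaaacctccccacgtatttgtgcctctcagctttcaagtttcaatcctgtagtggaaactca
Ermn: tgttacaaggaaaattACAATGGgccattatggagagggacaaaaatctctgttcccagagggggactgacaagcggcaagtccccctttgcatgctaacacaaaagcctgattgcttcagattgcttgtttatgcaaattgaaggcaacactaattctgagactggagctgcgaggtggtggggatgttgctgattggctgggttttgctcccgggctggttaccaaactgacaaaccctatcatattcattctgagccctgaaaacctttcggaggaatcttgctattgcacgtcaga

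Of 15 microglial factors tested, 12 were called higher and none lower, with a median difference of 2.62. Spi1, which encodes PU.1, stood at 175, 252 and 295 CPM in microglia and 6.09, 10.4 and 52.0 CPM in astrocytes (4.09, SE 0.49, edgeR adjusted p = 5.83e-05). Its 2 highest astrocyte values, 52.0 and 39.6 CPM, were those of vehicle pool 2 and risperidone pool 2. Irf8, an interferon regulatory factor that macrophages need, differed by 3.55 (SE 0.31). Mef2a was higher by 1.96 (SE 0.19), whereas its relative Mef2c, which neurons also express, was not called (0.50, SE 0.27, edgeR adjusted p = 0.244). Of 15 astrocyte factors, 13 were called lower in microglia, led by Sox9 (-2.17, SE 0.19) with levels of 16.1 to 46.9 CPM against 88.9 to 194 CPM. Nfia, which drives astrocyte formation, was lower by less (-1.42, SE 0.17). The other 2 went the opposite way: Id2, an inhibitor of helix-loop-helix factors, was higher in microglia by 2.97 (SE 0.29), and the Notch target Hes1 by 0.96 (SE 0.23, edgeR adjusted p = 0.0102). Hes1 was no longer called without vehicle pool 1 or clozapine pool 1 (edgeR adjusted p = 0.0809 and 0.062).

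All 20 microglial marker genes were called higher, with a median of 3.18, and for all 20 every microglia library stood above every astrocyte and every neuron library, as for 6.84% of genes tested. Cx3cr1, the fractalkine receptor, stood at 398, 405 and 735 CPM in microglia and at 21.3, 35.4 and 65.4 CPM in astrocytes (3.62, SE 0.31). Csf1r reached 1260 to 2490 CPM against 76.8 to 322 CPM (3.55, SE 0.39), and P2ry12, the ADP receptor of surveying microglia, 332 to 770 CPM against 32.5 to 66.5 CPM (3.01, SE 0.25). Sall1, a factor of microglial identity, had the smallest difference of the list (0.88). Of 16 purinergic genes, 8 were called higher, among them P2ry13 (3.20) and the ATP-hydrolysing enzyme Entpd1 (2.99). The 2 called lower were the adenosine receptor Adora1 (-0.95) and Entpd2 (-1.52, SE 0.18), a second ATP-hydrolysing enzyme. Over all genes tested 10.9% were called higher and 9.01% lower, so the 2 lower are not read as a result about the list.

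Receptors that signal through ITAM motifs, and the kinases and adaptors behind them, were among the groups most uniform in direction. The size of the difference varied, with pool medians from 1.75 in vehicle pool 2 to 4.1 in vehicle pool 1. Of 20 members 19 were called higher, with a median of 2.87, and none was called lower. The B-cell adaptor Pik3ap1 was 4.92 (SE 0.62) and Blnk 4.47 (SE 0.53) higher. Fcer1g, the common gamma chain of Fc receptors, stood at 78.7 to 150 CPM against 4.23 to 24.0 CPM (3.03, SE 0.36). Fcgr4 was the 1 member not called in edgeR (1.68). DESeq2 called all 20, Fcgr4 included (1.66, DESeq2 adjusted p = 0.0208). In edgeR it was called without vehicle pool 2 (edgeR adjusted p = 0.00229), where its sign was negative. Of 22 pattern recognition genes, 17 were called higher, with a median of 2.39. The inflammasome sensor Nlrp3 (4.83, SE 0.64), the DNA sensor Tlr9 (4.77, SE 0.61) and Tlr2 (4.72, SE 0.60) had the largest differences. Tlr3, a sensor of double-stranded RNA, was the only one called lower (-0.96, SE 0.16, edgeR adjusted p = 0.000594). It stood at 15.8 to 36.3 CPM in microglia and 34.4 to 75.3 CPM in astrocytes, with overlapping ranges but the same sign in all 6 pools.

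Of 22 complement genes 9 were called higher in microglia and 3 lower, beside 10.9% and 9.01% of all genes tested. The 3 lower are near that share and are not read as a result about the list. Higher were the 3 chains of C1q, with C1qa at 2.99 (SE 0.30) and C1qb at 3.20 (SE 0.39), the receptors C3ar1 (5.23, SE 0.69) and C5ar1 (4.19, SE 0.62), and the integrin subunits of complement receptors. C3ar1 stood at 1200, 1260 and 1480 CPM in microglia. Its astrocyte levels were 11.5, 20.0 and 262 CPM, again highest in vehicle pool 2. Lower were the secreted chaperone Clu (-2.10, SE 0.23), C4b (-0.92, SE 0.18) and Cd59a (-1.39, SE 0.31), which blocks the membrane attack complex. C3 itself was not called (0.90), but was called higher without vehicle pool 2 or risperidone pool 2 (edgeR adjusted p = 0.0192 and 0.0399).

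Inflammatory ligands and inhibitory receptors led the differences toward microglia. By the same minimum level and sign rule, the 5 protein-coding genes with the largest difference were Edn1 (5.95, SE 0.86), Lilr4b (5.70, SE 1.04), Tnf (5.70, SE 0.80), Ccl4 (5.65, SE 0.93) and Lilrb4a (5.48, SE 0.89). Lilr4b and Lilrb4a are near-identical inhibitory receptors, so their counts may be shared. Tnf, the cytokine tumour necrosis factor, stood at 891, 1480 and 1620 CPM in the batch 1 microglia libraries (vehicle, clozapine, risperidone) and at 654, 807 and 635 CPM in those of batch 2. Its astrocyte levels were 6.26, 10.6 and 11.3 CPM in batch 1 and 159, 8.81 and 72.6 CPM in batch 2 in the same order. All pools had the same sign, but the difference was 6.47 to 7.14 in 4 pools, 2.04 in vehicle pool 2 and 3.12 in risperidone pool 2. Edn1, the peptide endothelin 1, showed the same pattern, with 801 to 1130 CPM in microglia, 5.11 to 6.80 CPM in 4 astrocyte libraries and 193 and 151 CPM in those of vehicle pool 2 and risperidone pool 2. Edn1 lies on chromosome 13 at 42454952 to 42461466 (plus strand). The endothelin receptor gene Ednrb had the opposite direction (-1.96, SE 0.18), at 24.8 to 67.9 CPM in microglia and 131 to 224 CPM in astrocytes.

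Of 33 cytokine and chemokine genes, receptors included, 25 were called higher and 4 lower, with a median of 3.55. The chemokine genes Ccl4 and Ccl3 reached 2400 to 5240 CPM and 1260 to 2090 CPM in microglia, against medians of 50.9 and 28.6 CPM in astrocytes. Tgfb1 and its receptor Tgfbr1 were higher by 3.33 (SE 0.27) and 3.80 (SE 0.33). The 4 genes lower in microglia, named because they went against the list, were the alarmin Il33 (-2.68, SE 0.31), Cxcl14 (-2.03, SE 0.20), Tgfb2 (-1.20, SE 0.21) and Il18 (-0.94, SE 0.17). Il33 stood at 11.0, 24.7 and 75.8 CPM in microglia against 113, 185 and 212 CPM in astrocytes. Of the ligands that microglia receive from other cells, Cx3cl1 (-0.15, SE 0.25) and Il34 (0.14, SE 0.20) were not called, with edgeR adjusted p of 0.773 and 0.709.

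Antigen presentation and degradation leaned to microglia. Of 17 genes of the major histocompatibility complex pathway 14 were called higher (median 1.73), among them B2m at 664 to 1160 CPM against 55.6 to 177 CPM (3.07, SE 0.32) and the class II chaperone Cd74 (3.97, SE 0.56). Of 26 lysosomal and phagocytic genes 21 were called higher (median 1.65), with Cd68 (3.93, SE 0.43) and cathepsin B, Ctsb, at 2390 to 3660 CPM against 440 to 797 CPM (2.28, SE 0.28). The 2 called lower were the engulfment receptors Megf10 (-1.72) and Axl (-1.21), while Mertk was not called (0.10). Of 20 genes known from disease-associated microglia 15 were called higher (median 1.68). Apoe, Axl and Ank were called lower, and Apoe, the lipoprotein that astrocytes secrete, stood at 371, 940 and 1530 CPM in microglia against 2360, 2950 and 5930 CPM in astrocytes (-2.03, SE 0.28).

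**Figure D2:**
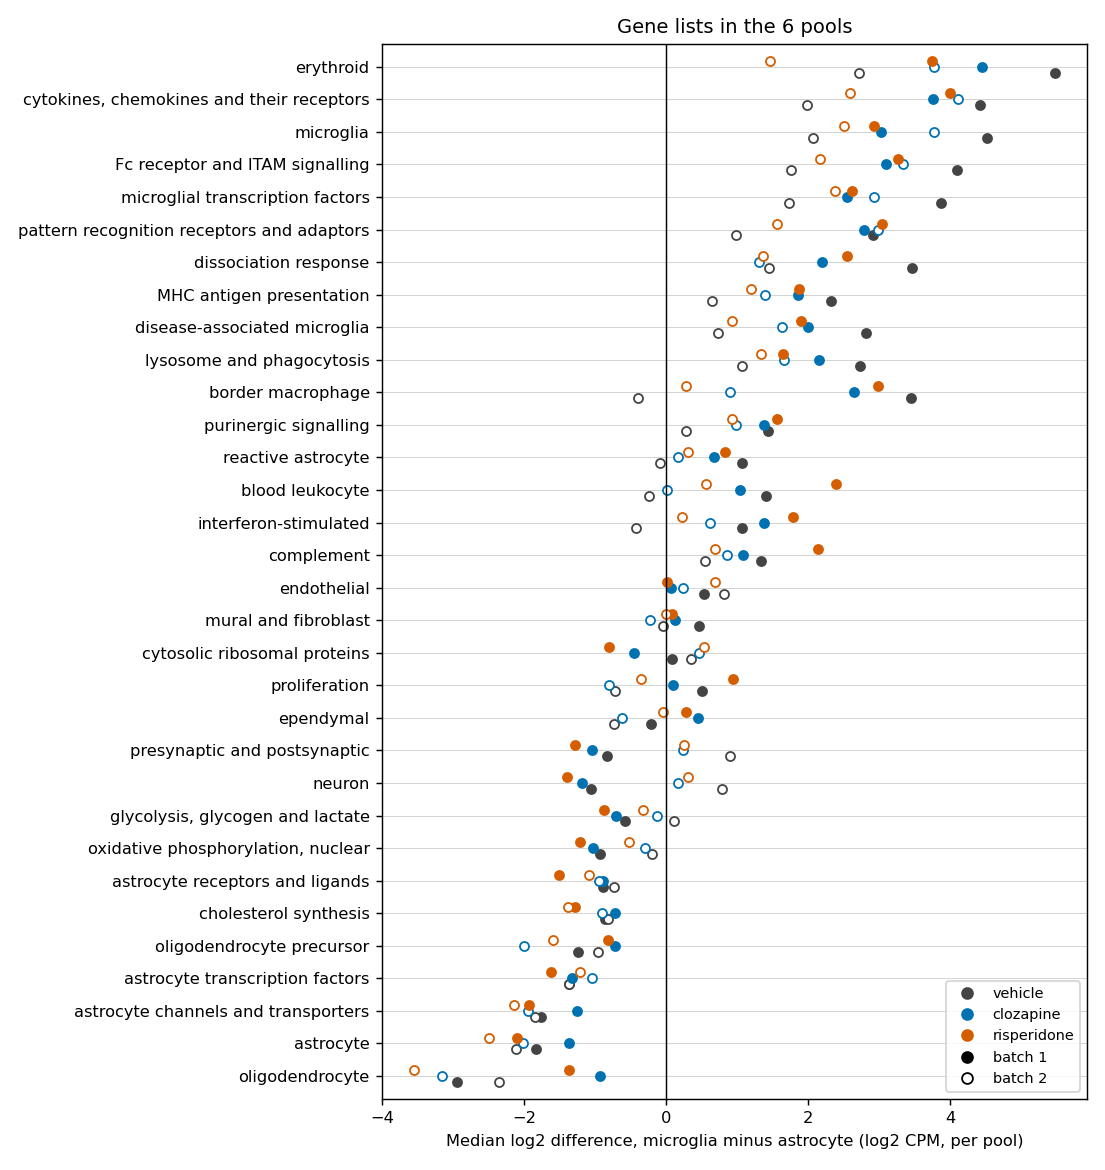
Median log2 difference (microglia minus astrocytes) of the tested members of 32 gene lists, 1 point per pool; colour gives the treatment, filled and open points give batch 1 and 2, and the vertical line marks 0. The microglia, cytokine, Fc receptor and pattern recognition lists lie to the right in all pools and the astrocyte, astrocyte transporter and oligodendrocyte lists to the left; the interferon, border macrophage and blood leukocyte medians are below 0 in vehicle pool 2, the reactive astrocyte median lies to the right in the other 5 pools, and the neuron and synaptic lists change side with the batch.

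All 20 astrocyte markers were called lower in microglia, with a median of -1.98. For 13 of them every astrocyte library stood above every microglia and every neuron library, as for 1.05% of genes tested. Slc1a2, the main glutamate transporter, stood at 1140, 1540 and 2020 CPM in microglia and 6210, 7090 and 10200 CPM in astrocytes (-2.36, SE 0.27). The water channel Aqp4 had 45.7 to 123 CPM against 259 to 509 CPM (-2.08, SE 0.19), and the filament gene Gfap 11.1 to 24.4 CPM against 77.0 to 156 CPM (-2.69, SE 0.23). The markers were not at 0 in the microglia libraries. Their summed level was 2250 to 6450 CPM there, beside 13900 to 29100 CPM in astrocytes. What part this RNA, or microglial RNA in the astrocyte libraries, had in the size of the differences was not tested.

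Of 22 astrocyte channels and transporters 18 were called lower in microglia and none higher (median -1.85). Kcnj10, the potassium channel that clears extracellular potassium, had one of the most even differences, at -2.63 (SE 0.20) overall and between -2.16 and -2.90 in single pools. edgeR did not call Gjb2 (-0.97), Slc7a11 (-0.45), Slc16a1 (-0.49) and the glucose transporter Slc2a1 (0.55). DESeq2 called 21 of the 22 lower, among them Gjb2, Slc16a1 and Slc7a11 (DESeq2 adjusted p = 0.0236, 0.0395 and 0.0477). In edgeR Gjb2 passed the test without risperidone pool 1 or 2 (edgeR adjusted p = 0.0358 and 0.0334), and Slc7a11 without risperidone pool 1 (0.0255). Slc16a1 passed it without vehicle pool 1, clozapine pool 1 or risperidone pool 1 (edgeR adjusted p between 0.0311 and 0.0467). Of 25 receptors and ligands 16 were called lower, including the synapse-associated secreted protein Sparcl1 (-2.16, SE 0.26, 2600 to 5550 CPM in astrocytes). The 3 called higher were Thbs1 (3.93, SE 0.56), Sparc (1.88, SE 0.24) and Notch2 (0.66), the last lost without any 1 pool other than vehicle pool 2 (edgeR adjusted p between 0.0854 and 0.196). Thbs1, a thrombospondin of which astrocytes are a known source, stood at 449 to 692 CPM in microglia against 11.5 to 176 CPM. The 3 receptors and ligands called higher are near the 10.9% of all genes tested that were called higher. Of 16 genes known from reactive astrocytes 6 were called higher in microglia and 2 lower. The 2 lower are near the 9.01% of all genes tested that were called lower. Higher were Srgn (4.32, SE 0.55), Ggta1 (3.88, SE 0.30), Cxcl10, Cd44, Gbp2 and Vim (0.67, SE 0.17), and lower were Gfap and Serpina3n (-1.68). Vim was not called without vehicle pool 1, clozapine pool 1 or risperidone pool 2 (edgeR adjusted p between 0.0681 and 0.104).

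Of 18 cholesterol synthesis genes 14 were called lower in microglia and none higher, with pool medians between -0.73 and -1.39. Hmgcs1 stood at 58.1 to 109 CPM in microglia and 166 to 355 CPM in astrocytes (-1.74, SE 0.20). Of 19 genes of glycolysis, glycogen and lactate 5 were called lower, namely Aldoc (-2.56, SE 0.27), Pygb (-1.68), Pygm (-1.30), Pfkm (-1.14) and Eno1 (-1.02). The other 2 called, Hk2 (3.10, SE 0.34) and the lactate exporter Slc16a3 (0.92), were higher. Over all genes tested 9.01% were called lower and 10.9% higher, and the 2 higher are near the latter share. The number called lower was 8 without vehicle pool 2 and in DESeq2, 9 without vehicle pool 2 and risperidone pool 2, and 13 in batch 1 alone. Slc16a3 was lost without vehicle pool 1, clozapine pool 1 or risperidone pool 1 (edgeR adjusted p between 0.0815 and 0.131). Of 26 nuclear genes of oxidative phosphorylation 15 were called lower and none higher (median -0.79). The number lower was 25 in batch 1 alone and 6 in batch 2 alone, 24 in a fit with a batch term, and 22 without vehicle pool 2 and risperidone pool 2. Over all genes the number called lower moved too, from 2471 to 4876, 1925, 3873 and 3785 in these fits, in the same order. It was 3333 without vehicle pool 2 and 2977 in DESeq2. For 10 of the 26 oxidative phosphorylation genes the difference was called higher in batch 2 than in batch 1, beside 7.98% of all genes tested. Among genes with a mean of at least 10 CPM 22.0% had a batch call in either direction. Mitochondrially encoded genes had 0 reads and were not analysed here. Of 30 cytosolic ribosomal protein genes 3 were called, all higher, led by Rpl10 (1.34, SE 0.26). That is near the 10.9% of all genes tested that were called higher, and the median was 0.04. In batch 1 alone 2 were called higher and 10 lower. Of 13 proliferation genes Pcna (1.28) was called higher and Top2a (-0.68) lower, beside 10.9% and 9.01% of all genes tested. Top2a was lost without clozapine pool 1 or 2 or risperidone pool 2 (edgeR adjusted p between 0.0544 and 0.168).

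Oligodendrocyte genes led the differences toward the astrocyte fraction. By the minimum level and sign rule used above, the 5 leading protein-coding genes were Mobp (-4.50, SE 0.60), Bcas1 (-4.36, SE 0.73), Mbp (-4.11, SE 0.54), Plekhb1 (-4.05, SE 0.37) and Ermn (-3.30, SE 0.43). All are known from myelinating cells, although the protocol removed these cells between the 2 captures. Of 20 oligodendrocyte markers 19 were called lower in microglia, with a median of -2.59, and of 12 precursor markers 11 (median -1.23). None of the 20 had all astrocyte libraries above all microglia and all neuron libraries. Summed over the 20, the level was 10000 to 50000 CPM in astrocytes and 988 to 4090 CPM in microglia. In the batch 1 astrocyte libraries (vehicle, clozapine, risperidone) it was 34900, 31400 and 50000 CPM. The sum of the 20 astrocyte markers was 17500, 20300 and 29100 CPM there. In batch 2 the sums were 10000, 14600 and 12900 CPM against 14100, 14600 and 13900 CPM. The part of oligodendrocyte RNA in other genes called lower in microglia was not tested.

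Red blood cell genes ran with the microglia fraction. Of 6 tested, 5 were called higher, with a median of 3.71. Hbb-bs, a beta globin, stood at 993, 4580 and 12900 CPM in microglia and 97.0, 165 and 323 CPM in astrocytes (4.61, SE 0.69). The summed level of the list was 1340 to 16100 CPM in microglia and 181 to 474 CPM in astrocytes. Globin paralogs share sequence, so the split between Hba-a1 (4.22) and Hba-a2 (4.98) is uncertain. Of 10 markers of macrophages at the brain's borders 5 were called higher, namely Pf4, Mrc1, Stab1, Ms4a7 and F13a1. Only 3 of the 5 had the same sign in all 6 pools. In batch 2 alone Ms4a7 was 0.14 and F13a1 0.11, and 2 of the 10 were called. The number called was 8 without vehicle pool 2 and 2 without clozapine pool 1, and 3 without vehicle pool 1, clozapine pool 2 or risperidone pool 1. Mrc1, the mannose receptor, stood at 12.7 to 186 CPM in microglia and 4.13 to 10.8 CPM in astrocytes (2.71, SE 0.45). Of 16 blood leukocyte genes 3 were called, the neutrophil genes S100a8 (3.56) and S100a9 (3.75) and the T-cell gene Cd3e (1.46). S100a8 stood at 2.64 to 14.6 CPM in microglia. Only 1 of the 3 had the same sign in all 6 pools. Without vehicle pool 2 the number called was 5, and without risperidone pool 2 as well it was 6. S100a9 and Cd3e were lost without any 1 of the other 5 pools (edgeR adjusted p between 0.0572 and 0.0944, and between 0.052 and 0.182). Of 12 endothelial markers only Pecam1, which leukocytes also express, was called (1.72, SE 0.20), and Cldn5, which defines brain endothelium, stood at 2.58 to 8.33 CPM against 1.35 to 4.58 CPM without a call. Of 11 mural and fibroblast genes Pdgfrb (-0.63) and Cspg4 (-0.69, SE 0.20) were called lower. Cspg4 was lost without clozapine pool 2 or risperidone pool 2 (edgeR adjusted p = 0.115 and 0.0618). Of 6 ependymal genes edgeR called 0, with 1 at an unadjusted p under 0.05, and DESeq2 called 0. Over all genes tested 10.9% were called higher and 9.01% lower. The leukocyte, endothelial and mural counts are small beside these shares and are not read as a result about those lists. What the cell types named in this paragraph contribute to the called genes was not tested.

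Genes that respond to the dissociation of tissue were also on the microglial side. Of 27 tested, 23 were called higher and none lower (median 2.14). Nfkbia, the inhibitor of NF-kappaB, stood at 735, 832 and 1470 CPM in microglia and 39.4, 60.1 and 189 CPM in astrocytes (3.51, SE 0.39). Dusp5, a phosphatase of MAP kinases, was higher by 3.98 (SE 0.46) and Egr1 by 1.63 (SE 0.33). Fos was not called (-0.66, SE 0.34, edgeR adjusted p = 0.221), or was called lower without vehicle pool 1 (0.0311). Its sign was positive in vehicle pool 1 and negative in the other 5 pools. Of 25 interferon-stimulated genes 6 were called higher, 3 of them with the same sign in all 6 pools. The number called was 11 without vehicle pool 2 and 13 without that and risperidone pool 2. Oasl1 differed by 4.09 (SE 0.92) and Ifit1 by 2.96 (SE 0.52). Oasl1 stood at 144, 348 and 388 CPM in the batch 1 microglia libraries and at 31.1, 157 and 65.5 CPM in those of batch 2, and it was lower in microglia than in astrocytes in vehicle pool 2. How much of the cytokine differences above moved with this response to dissociation was not tested.

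**Figure D3:**
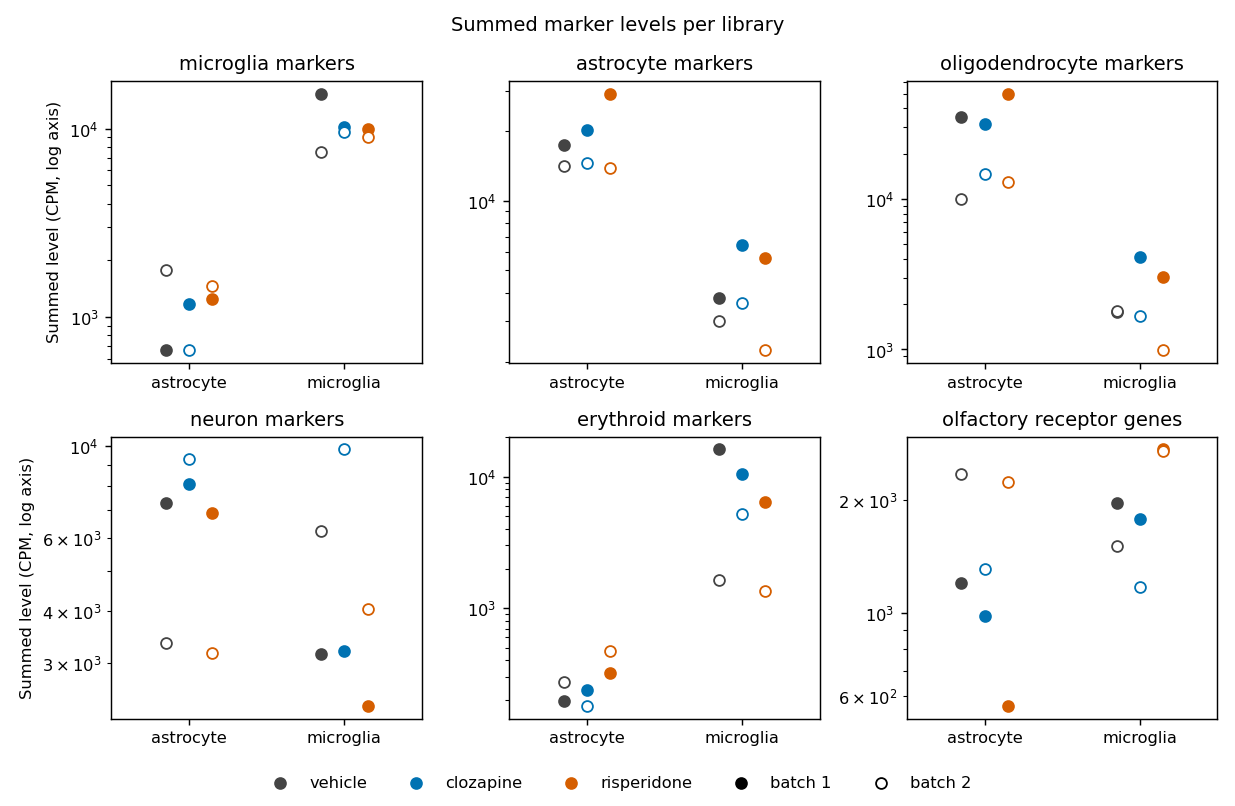
Summed level in CPM (log axis) of the marker genes of 5 cell types and of 1091 olfactory receptor genes in each of the 12 libraries; colour gives the treatment and filled and open points give batch 1 and 2. Microglial and erythroid sums are higher in all microglia libraries and oligodendrocyte and astrocyte sums in all astrocyte libraries, whereas neuron and olfactory receptor sums overlap between fractions.

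Of 20 neuron markers 1 was called, Gap43, a protein of growing axons (-1.13, SE 0.37, edgeR adjusted p = 0.0481), and of 24 presynaptic and postsynaptic genes none. At an unadjusted p under 0.05 the counts were 1 and 3 in edgeR, and DESeq2 called 2 and 3. Over all genes tested 10.9% were called higher and 9.01% lower. Gap43 was lost without vehicle pool 1, clozapine pool 1 or risperidone pool 1 (edgeR adjusted p between 0.0911 and 0.151). Without vehicle pool 2 alone, 5 synaptic genes were called lower, and with both vehicle pool 2 and risperidone pool 2 left out 12 neuron markers and 11 synaptic genes were. A batch term in the fit with all pools gave 10 and 10 lower, and 1 neuron marker higher. In batch 1 alone 19 of the 20 neuron markers were called lower, and in batch 2 alone 1 was called higher and 0 lower. Snap25, a part of the vesicle fusion machinery, stood at 256, 318 and 205 CPM in the batch 1 microglia libraries (vehicle, clozapine, risperidone) and at 853, 1310 and 498 CPM in those of batch 2. In astrocytes it stood at 683, 860 and 644 CPM in batch 1 and at 380, 994 and 301 CPM in batch 2. Snap25 was thus lower in microglia in all 3 pools of batch 1 and higher in all 3 of batch 2.

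The same split was tested over all genes as the difference of the fraction differences between batches. It was called for 3333 genes (12.1%), of which 2189 were higher in batch 2 (7.98%) and 1144 lower (4.17%). The number was 1332 without vehicle pool 2, 1800 without risperidone pool 1, 1946 without risperidone pool 2, and 1852 with no pool block. All 24 synaptic genes and 19 of the 20 neuron markers were among those higher in batch 2, or 14 and 9 with no pool block. Snap25 differed by 2.26 (SE 0.30, edgeR adjusted p = 0.000463) and Map2, a microtubule protein of dendrites, by 1.87 (SE 0.29). Pool medians of the neuron list were -1.06, -1.19 and -1.40 in batch 1 and 0.79, 0.16 and 0.31 in batch 2. The 3 genes with the smallest p in this direction were Kif5c (2.97, SE 0.30), a neuronal kinesin motor, Pkp4 (2.99, SE 0.31) and Tatdn1 (3.08, SE 0.31). Kif5c stood at 1350, 1370 and 1570 CPM in the batch 1 astrocyte libraries and at 201, 477 and 201 CPM in those of batch 2, while its microglia levels were 192 to 454 CPM.

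**Figure D4:**
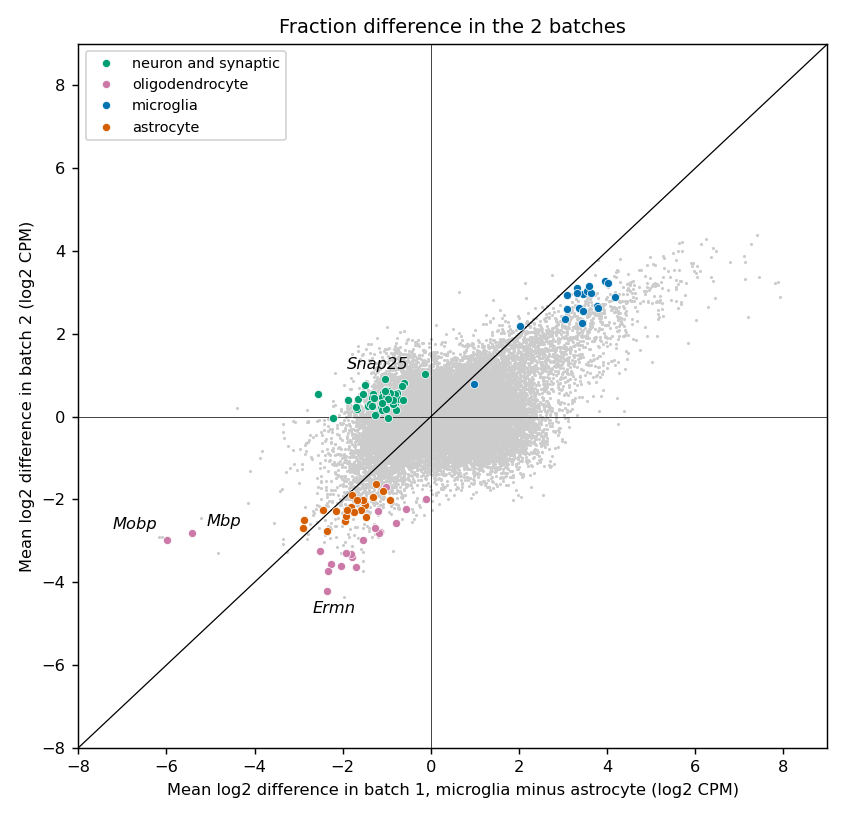
Mean log2 difference (microglia minus astrocytes) over the 3 pools of batch 1 (x axis) and of batch 2 (y axis) for all tested genes in grey and for the members of 4 marker groups in colour; the diagonal marks equal differences. Neuron and synaptic genes lie left of 0 in batch 1 and mostly above 0 in batch 2, and Mbp and Mobp lie far above the diagonal while most other oligodendrocyte genes lie below it.

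Oligodendrocyte genes split in both directions. Mbp, which encodes myelin basic protein, stood at 14900, 14200 and 28700 CPM in the batch 1 astrocyte libraries and at 1510, 2150 and 1590 CPM in those of batch 2. In microglia it stood at 178 to 526 CPM. Its fraction difference was closer to 0 in batch 2 by 2.59 (SE 0.36, edgeR adjusted p = 0.000665), and that of Mobp by 3.01 (SE 0.38). The mRNAs of both genes are known to be carried out into the processes of oligodendrocytes. Ermn astrocyte levels, in contrast, were 578, 387 and 564 CPM in batch 1 and 338, 585 and 417 CPM in batch 2. Its fraction difference was further from 0 in batch 2 (-1.85, SE 0.46, edgeR adjusted p = 0.0143). The microglia levels of Ermn, which also enter this difference, are not given here. Of 20 oligodendrocyte markers 2 were called higher in batch 2, Mbp and Mobp, and 12 lower. The number lower was 1 without clozapine pool 1, 3 without risperidone pool 1 or 2, and 7 in DESeq2. Ermn was lost without clozapine pool 1, risperidone pool 1 or risperidone pool 2 (edgeR adjusted p between 0.0502 and 0.0875) and in DESeq2 (0.0852).

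Of 33 cytokine and chemokine genes 13 were called lower in batch 2 and 1 higher. Of 27 dissociation genes 18 were called lower and of 10 border macrophage genes 8, with 0 higher in both. Over all genes tested 4.17% were called lower and 7.98% higher. Other lists held lower calls too, among them 8 of 22 pattern recognition, 8 of 25 interferon-stimulated, 7 of 20 Fc receptor and ITAM and 4 of 6 erythroid genes. In these other lists 0 were called higher. Of 15 microglial factors 5 were lower and 1 higher, and of 20 disease-associated microglia genes 7 were lower and 1 higher. Without vehicle pool 2 the pattern recognition and Fc receptor numbers fell to 3 and 1. With 1 pool left out the cytokine number ran from 4 (vehicle pool 2) to 22 (clozapine pool 2), with 8 and 5 without risperidone pool 1 and 2. The dissociation number fell to 11 without vehicle pool 1 or risperidone pool 2, and the border macrophage number to 5 without vehicle pool 2. Cxcl2, a neutrophil chemokine, was the gene with the smallest p in this direction (-4.92, SE 0.47, edgeR adjusted p = 7.32e-05). Its microglia levels were 712, 798 and 1140 CPM in batch 1 and 302, 185 and 225 CPM in batch 2. The batch difference also takes in its astrocyte levels, which are not given here. The next 2 genes by p were the nuclear factor Csrnp1 (-2.67, SE 0.34) and the ion channel gene Tmem63a (-1.99, SE 0.26). Tmem63a, which oligodendrocytes also express, was higher in microglia in all pools of batch 1 and lower in all pools of batch 2. Tnf differed by -3.45 (SE 0.75, edgeR adjusted p = 0.0065) and was lost without vehicle pool 2 or risperidone pool 2 (0.0538 and 0.0539). Of 20 microglial markers, 15 astrocyte transcription factors and 18 cholesterol genes edgeR called 0, with 4, 2 and 2 at an unadjusted p under 0.05, and DESeq2 called 0. Without clozapine pool 2, 5 microglial markers were called lower.

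With vehicle pool 2 and risperidone pool 2 left out, clozapine pool 2 was the only pool of batch 2, and 41 genes were called in the batch comparison. Of the lists above, 1 synaptic gene was then called higher in batch 2 and 0 neuron markers. Called lower were 1 border macrophage gene and 0 of the oligodendrocyte, cytokine and dissociation genes. At an unadjusted p under 0.05 in edgeR there were 23 of the 24 synaptic genes, 18 of 20 neuron markers, 16 of 20 oligodendrocyte markers, 8 of 33 cytokine genes, 17 of 27 dissociation genes and 6 of 10 border macrophage genes. The batch difference of Snap25 was then 1.93, of Kif5c 2.76, of Mbp 2.66 and of Mobp 2.59, beside 2.26, 2.97, 2.59 and 3.01 with all pools. Kif5c was still called, and Snap25, Mbp and Mobp were not (edgeR adjusted p = 0.104, 0.111 and 0.1). That of Cxcl2 was -3.43 and that of Egr1 -1.88, beside -1.60 (SE 0.31) with all pools, and Egr1 was no longer called (edgeR adjusted p = 0.131). The values of Tnf, Edn1 and Spi1 were -0.60, 0.10 and 0.08, beside -3.45, -3.53 and -1.99 with all pools. Edn1 and Spi1 also lost the batch call with 1 pool left out, such as vehicle pool 2 (edgeR adjusted p = 0.144 and 0.209) or risperidone pool 2 (0.121 and 0.13). Edn1 lost it without risperidone pool 1 (0.0547), and Spi1 without vehicle pool 1 or clozapine pool 1 (0.0623 and 0.0817). The astrocyte libraries of the pools left out had the highest microglial sums, 1780 and 1460 CPM.

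Whether the fraction difference itself differed with treatment was tested on 2 pools per treatment, with 3 residual degrees of freedom. edgeR called no gene for clozapine against vehicle or for risperidone against vehicle (0 of 27435 each, 0%), with 154 and 266 genes at an unadjusted p under 0.05. DESeq2 also called 0 in both. With so few pools these counts of 0 do not show that the fraction difference was alike between treatments. Among the genes with the smallest p, Rab7b, a GTPase of late endosomes, had a difference higher with clozapine by 2.24 (SE 0.58, edgeR adjusted p = 1). Scnn1a was higher with risperidone by 2.09 (SE 0.63) and Tvp23b lower (-1.62, SE 0.44), also without a call. Pool medians of the microglial marker list were 4.52 and 2.07 with vehicle, 3.02 and 3.77 with clozapine, and 2.92 and 2.50 with risperidone. The 2 vehicle pools were further apart than any pair of treatment means.

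The 4 called genes of at least 10 CPM with the largest spread of the pool differences were Ifnb1, Lilr4b, Ccl5 and Oasl1. Ifnb1, which encodes interferon beta, differed by 6.54 in clozapine pool 1 and by 1.08 in vehicle pool 2, on the log2 CPM scale with a prior count of 2. Its level was 10.5 to 146 CPM in microglia and at most 4.80 CPM in astrocytes, where 2 libraries had no read. The 4 genes with the smallest spread were Sipa1l2, Hnrnph2, Stambp and Entpd2. Sipa1l2, a GTPase regulator, stood at 162, 169 and 182 CPM in microglia and 83.7, 89.5 and 96.5 CPM in astrocytes, with pool differences from 0.85 to 1.02.

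Of 4394 long noncoding RNAs tested 11.7% were called, and of 18166 protein-coding genes 24.2%; the shares were not compared by a test. Lncpint stood at 285, 358 and 450 CPM in microglia and 72.4, 102 and 124 CPM in astrocytes (1.89, SE 0.18). Kdm6bos, which lies antisense to a histone demethylase gene, was higher by 2.41 (SE 0.20). Sox2ot, which overlaps Sox2, was lower in microglia (-1.82, SE 0.24), and so was Bcas1os2 (-3.88, SE 0.50), named for its neighbour Bcas1. Counting used no strand setting, so reads of Kdm6bos, Sox2ot and Bcas1os2 cannot be told apart from those of the genes they overlap.

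The neuron fraction of the same pools served as a reference level. Of the 2256 genes called higher in microglia without overlap, 1840 (81.6%) also had every microglia library above every neuron library. Of the 1216 genes called lower without overlap, 280 had every astrocyte library above every neuron library. On the scale of all 18 libraries Aldoc, an aldolase of astrocytes, stood at 1130 to 4740 CPM in astrocytes and 651 to 1290 CPM in neurons. Mbp stood at 1360 to 26900 CPM in astrocytes and 1970 to 17300 CPM in neurons.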

How the data were processed

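Paired-end reads of the 12 microglia and astrocyte libraries were counted per gene by the authors with featureCounts v2.0.8, per the file headers, at exons, with reads over several genes given to each of them and no strand setting. The deposited values are raw read counts per gene. FastQC and GRCm39 are named in the submitters' processing notes, and for the aligner a name was not given in the sources used here. The 56953 gene identifiers carried no symbols in the tables, and 52029 of them, with 96.2% of the counts, were named from GENCODE vM21.

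The counts were fitted as deposited with edgeR 4.0.16 (R 4.3.3), using TMM scaling (factors 0.762 to 1.262), its default filter on low counts, and the quasi-likelihood test with the pool as a block. All 27435 genes that passed were adjusted together by Benjamini-Hochberg, with a threshold of 0.05. Interaction terms with treatment or batch gave the differences of the fraction difference. DESeq2 1.42.0 was an alternative. The code was tested on simulated counts. Pool differences are in log2 CPM with a prior count of 2.

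The pairing comes from the labels' protocols, by which the fractions of a pool came from 1 suspension, and from treatment and batch number, since no pool identifier is given. In the data the 2 libraries of a pool deviated from their fraction means with correlations of -0.27 to 0.36 over genes, and 1 of 6 pools had its own partner as its best match. With no replicate block 5811 genes were called between the fractions, beside 5475. Pools are separate groups of animals, and no 2 of the libraries held identical counts.

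Members, gene lists and the rule for named genes were chosen with earlier results of these data known. Named genes were the capture antigens and S100b, the called protein-coding genes with the smallest p or the largest difference, up to 3 long noncoding RNAs per direction, leading members of each list, the genes with the largest and smallest spread over pools, and the first genes of each interaction. All but the antigens and list members needed a mean of at least 10 CPM. Genes that went against their list, or whose call turned on 1 pool, were added after their values were seen. Alternatives were no block, other scaling, no filter, single batches, all 18 libraries and each pool left out, and, added after the data were seen, a batch term, a minimum level and leaving out vehicle pool 2 with risperidone pool 2. Values of a few list members are not reported here.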

Additional observations from a re-analysis of the deposited data

Results flagged for a closer look

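In 4 of 137 genes checked, 1 pool stood apart from the other 5 by the Dixon criterion on the difference between microglia and astrocytes, and in 0 of 32 lists. Chance alone flags about 1 in 20 such groups. Fcgr4 (-1.62, log2 CPM) and S100a9 (-1.81) were lower in microglia in vehicle pool 2 and higher in the other 5 pools. Tmem229a had its largest difference in vehicle pool 1 (-3.21), and Vim had its largest in risperidone pool 2 (1.25).

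The fraction difference itself differed between batch 2 and batch 1 by the edgeR interaction test for 3333 genes. Among the genes named, it was higher in batch 2 for Snap25 (2.26), Map2 (1.87), Kif5c (2.97), Pkp4 (2.99), Tatdn1 (3.08), Mbp (2.59) and Mobp (3.01). It was lower for Ermn (-1.85), Cxcl2 (-4.92), Csrnp1 (-2.67), Tmem63a (-1.99), Tnf (-3.45), Egr1 (-1.60), Edn1 (-3.53) and Spi1 (-1.99). Batch cannot be told apart from anything that differed between the pools of the batches and is not in the labels.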

How the results depend on the processing

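Of 123 genes named as called between the fractions, 105 kept call and direction under every alternative run for single genes, and 111 under those that keep at least 5 pools; none of the 123 reversed. Of 15 genes named for a batch difference, 4 and 10 did. The number called between the fractions was 5475, with 4292 to 6302 when 1 pool was left out. It was 3431 with an absolute log2 difference of at least 1 and 8749 in batch 1 alone. The number with the same sign in all 6 pools was 4961, with 4170 to 5888 when 1 pool was left out, 3237 with the size minimum and 8687 in batch 1 alone. With no replicate block the counts were 5811 and 5055. Clozapine against vehicle gave 1 call with a batch term added after seeing the data, where 1120 genes had an unadjusted p under 0.05, and 0 otherwise. Risperidone gave 0 in every fit. The batch count of 3333 was 1852 with no replicate block, 5418 at an adjusted p under 0.10, 1332 to 3146 with 1 pool left out, and 41 without vehicle pool 2 and risperidone pool 2, where 3270 genes had an unadjusted p under 0.05. The causes of these changes were not tested.

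Genes that were not called between the fractions reversed as follows. Cx3cl1 was 0.01 with no replicate block and 0.35 in batch 2 alone. In batch 2 alone Mertk was -0.02, Snap25 0.69 and Thy1 0.24, and in batch 1 alone Fos was 0.15 and Mef2c -0.13. All of these but Mertk were called the other way in the other batch: in batch 1 Cx3cl1 (-0.73, edgeR adjusted p = 0.00764), Snap25 (-1.52, 2.19e-05) and Thy1 (-0.84, 0.00581), in batch 2 Fos (-1.56, 0.000262) and Mef2c (1.04, 0.00297). With 1 pool left out Mertk ran from -0.17 to 0.17. The batch differences of Edn1 and Spi1 were 0.10 and 0.08 without vehicle pool 2 and risperidone pool 2. Genes of a few CPM, such as S100a8, and the treatment comparisons of 2 pools each are where depth and number of pools limit the precision.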

Other observations

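Whole-library sums of olfactory receptor genes, which are known from the nose rather than from cortex, were computed after values had been seen. The 1091 genes summed to 1170 to 2730 CPM in microglia and to 565 to 2340 CPM in astrocytes, highest among astrocytes in vehicle pool 2 and risperidone pool 2 (2340 and 2240 CPM). Of 469 tested, 1 was called (Olfr287, -0.93).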
